A study of Rattus norvegicus with 23 samples.

Results

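Ccl2, Il1b, Il6, Icam1 and Vcam1, a chemokine, a pair of cytokines and a pair of endothelial adhesion molecules, were followed in the heart apex of 23 Lewis rats after kidney transplantation. These 5 genes were chosen by their Ensembl rat identifiers (ENSRNOG00000007159, ENSRNOG00000004649, ENSRNOG00000010278, ENSRNOG00000020679 and ENSRNOG00000014333, in that order), out of 26405 genes in the count files. All 5 were found and all 5 passed the filter on low counts, so none was too low to test. The files carry no gene names, and the RefSeq gene table used here held 0 Ensembl rat identifiers, so the names are those given with the identifiers when the genes were chosen and were not checked against the files.

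Donor disease and recipient disease were combined in a factorial design, with 1 polyA RNA-seq library per rat. HD-HR hearts (n = 6) came from healthy recipients of a healthy kidney, CD-HR hearts (n = 6) from healthy recipients of a kidney with chronic kidney disease (CKD), HD-CR hearts (n = 5) from CKD recipients of a healthy kidney, and CD-CR hearts (n = 6) from CKD recipients of a CKD kidney. CKD followed coagulation of branches of both renal arteries, after which the rats drank L-NNA (200 mg/L), which blocks nitric oxide synthesis, and ate chow with 6% NaCl up to a proteinuria of 200 mg per 24 h. They were transplanted, or used as donors, at a proteinuria of 100 mg per 24 h off both agents, so a CKD recipient's heart had itself been exposed to these treatments, while the heart of a healthy recipient of a CKD kidney had not. Every rat, controls included, received a left kidney isograft, lost the right native kidney 10 to 14 days later, and was perfused with saline before the tissue was taken 6 weeks after transplantation. The apex holds cardiomyocytes, endothelium, fibroblasts and resident leukocytes together, and in such bulk tissue fewer cells of a type and less RNA per cell cannot be told apart. Markers of these cell types, and 62 further symbols on 4 lists of interleukin, chemokine, adhesion and NF-kappaB genes, could not be matched to the identifiers and were not analysed here.

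CCL2 is a chemokine that draws monocytes through the receptor CCR2. IL-1β is made mainly by myeloid cells and signals through the interleukin 1 receptor to NF-kappaB, and IL-6 signals through gp130 to STAT3. ICAM1 and VCAM1 are cell surface proteins of activated endothelium that bind leukocyte integrins, and transcription of all 5 genes is known to be inducible through NF-kappaB.

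The region upstream of the start site is shown as a description only. Any part of it in the levels of these genes, in CD-CR1 or elsewhere, was not tested. The RefSeq promoter table (build GRCr8) held 4 of the 5 members, all but Ccl2, while the counts were made on build Rnor_5.0. The 250 bases before each start were searched on both strands for the NF-kappaB consensus, for GGAAATTCC, the core of the known site of the human ICAM1 promoter, and for TGANTCA, an AP-1 site. Capitals mark the matches, and each sequence is written 5′ to 3′ on the strand of the gene.
Il6 (chr4:5894576-5894825, minus strand): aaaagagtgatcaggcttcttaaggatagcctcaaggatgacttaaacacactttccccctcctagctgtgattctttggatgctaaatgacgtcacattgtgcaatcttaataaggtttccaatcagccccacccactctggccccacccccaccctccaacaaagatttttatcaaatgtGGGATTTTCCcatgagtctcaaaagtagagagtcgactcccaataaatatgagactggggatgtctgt
Vcam1 (chr2:206742784-206743033, minus strand): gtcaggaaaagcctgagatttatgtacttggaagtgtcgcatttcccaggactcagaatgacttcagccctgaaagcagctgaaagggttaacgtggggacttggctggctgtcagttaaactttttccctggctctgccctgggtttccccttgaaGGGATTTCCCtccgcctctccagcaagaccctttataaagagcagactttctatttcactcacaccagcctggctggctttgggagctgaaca
Icam1 (chr8:27829595-27829844, plus strand): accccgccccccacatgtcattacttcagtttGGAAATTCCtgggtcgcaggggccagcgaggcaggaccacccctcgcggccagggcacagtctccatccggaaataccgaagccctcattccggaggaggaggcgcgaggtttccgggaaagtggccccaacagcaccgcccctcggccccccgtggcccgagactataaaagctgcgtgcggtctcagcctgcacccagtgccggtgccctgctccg
Il1b (chr3:137036582-137036831, minus strand): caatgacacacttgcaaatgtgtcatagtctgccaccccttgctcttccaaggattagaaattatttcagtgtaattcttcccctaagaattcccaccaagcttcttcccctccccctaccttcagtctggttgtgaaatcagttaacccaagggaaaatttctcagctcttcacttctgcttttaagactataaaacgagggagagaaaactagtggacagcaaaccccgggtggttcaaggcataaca

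The NF-kappaB consensus was matched by GGGATTTTCC in Il6, 68 to 59 bases before the start, and by GGGATTTCCC in Vcam1, 93 to 84 bases before the start and on both strands. It was present in 2117 of 33465 rat promoter windows of the same length (6.33%). GGAAATTCC lay 218 to 210 bases before the Icam1 start, and 96 of the 33465 windows (0.287%) held it on either strand. This motif was chosen from the human gene itself, so its rarity does not make the Icam1 match unexpected. The Icam1 window held no match to the general consensus. TGANTCA was in none of the 4 windows and in 6.34% of all windows. A match is a description of letters, not of a site in use.

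Library depth was 7391929 to 12444980 counts in genes (median 9831294). Levels are given as TMM-scaled CPM, the reads of a gene relative to the library's scaled total, and comparisons are within a gene, since transcript lengths were not used. CD-CR1 stood apart from the other libraries: its median correlation with them over all tested genes was 0.924, against 0.945 in the next lowest library (HD-CR4) and up to 0.969. Its 10 most abundant genes took the smallest share of counts (48.8%) and its TMM factor was the highest (1.462), though HD-CR2 was near it in both (51.4% and 1.319). Its depth, 7801127 counts, lay within the range of the rest, and it had 14983 genes with a count, near the highest of all libraries (15003). Since cell type markers could not be matched, whether CD-CR1 holds the labelled tissue as the other libraries do was not checked, and every CD-CR value that includes it carries that limit. The tests on which the text turns are given with and without it.

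All 5 genes were far lower in CD-CR1 than in any other heart. Ccl2 stood there at 2.20 CPM (25 counts), against 16.3 to 92.7 CPM in the other 22 libraries, which is 26.5-fold below their median. Il1b was at 1.41 CPM (16 counts) against 9.10 to 30.6, or 10.9-fold below the median. Il6 had 0 counts, which at 3 counts allows up to 0.264 CPM, so it was at least 17.8-fold lower than the median of the others (4.70 CPM). Icam1 was at 14.5 CPM (165 counts) against 175.4 to 477.4, 21.4-fold below the median, and Vcam1 at 6.50 CPM (74 counts) against 107.4 to 275.2, 24.0-fold below. The chemokine, both cytokines and both adhesion genes thus lay beneath every other library, including the other 5 of its own group. These folds include the high TMM factor of CD-CR1. Without TMM scaling its Ccl2, Il1b, Icam1 and Vcam1 levels were 3.205, 2.051, 21.15 and 9.486 CPM. The lowest values in the other libraries were then 14.8, 8.984, 159.6 and 102.3 CPM.

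**Figure D1:**
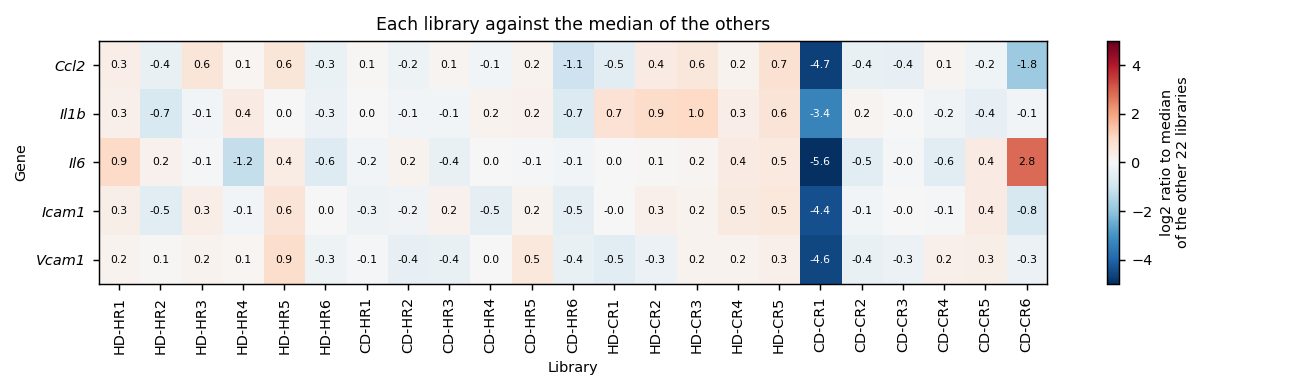
Log2 ratio of each of the 5 genes (rows) in each of the 23 libraries (columns) to the median of the other 22, with 0.1 CPM added to both; blue is lower and red is higher. The CD-CR1 column is blue in all rows, where the Il6 value rests on the added 0.1 CPM because it had 0 counts, and CD-CR6 is red for Il6 and blue for Ccl2.

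Few genes behaved this way in CD-CR1. Of 7609 genes averaging 5 CPM or more, 34 (0.447%) were in CD-CR1 more than 3-fold below the lowest of the other 22 libraries, and all 5 members were among these 34. Il6 reached the minimum of 5 CPM only through CD-CR6 (mean 5.86 CPM, and 4.59 CPM without that library). With the minimum set without CD-CR6, 33 of 7613 genes (0.433%) were this low, among them the other 4 members. In each of the other 22 libraries the same count was 0 or 1. The median log2 ratio of CD-CR1 to the other libraries was -4.57 over the 5 members, or -4.41 with Il6 at its bound, and -0.05 over all 7609 genes. Ranked from the lowest ratio with 0.1 CPM added, Ccl2 was 8, Vcam1 was 10, Icam1 was 11 and Il1b was 19 of 7609, while Il6, with only a bound, has no exact rank. The members' place in this tail was noticed in the data and has no test. The part played in it by the low share of the 10 most abundant genes in this library was not tested.

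**Figure D2:**
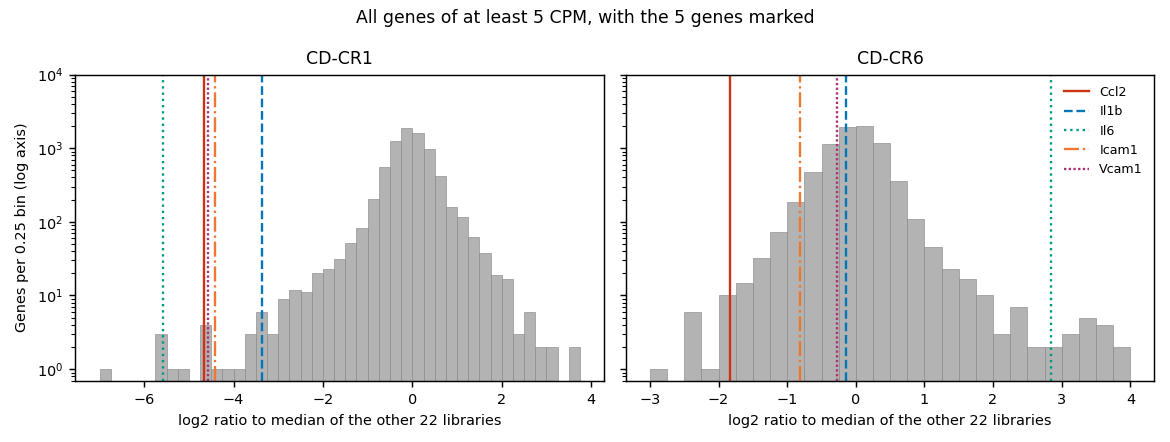
Distribution over 7609 genes of the log2 ratio of CD-CR1 (left) and CD-CR6 (right) to the median of the other 22 libraries; bars count genes per 0.25 bin on a log axis, and vertical lines mark the 5 genes. In CD-CR1 all 5 lines sit in the far left tail, and in CD-CR6 they are spread from Ccl2 on the left to Il6 on the right.

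CD-CR6 departed from the rest in another way. Its Il6 level was 33.8 CPM (322 counts), 7.29-fold above the median of the other libraries, whose highest was 8.96 CPM (HD-HR1). Its Ccl2 level was 16.3 CPM, 3.58-fold below the median and the lowest of all libraries but CD-CR1, and its Icam1 level of 175.4 CPM was also the lowest but one. Il1b (13.8 CPM) and Vcam1 (129.0 CPM) were within the range of the other CD-CR hearts. The cytokine Il6 and the chemokine Ccl2 thus lay on opposite sides of the other libraries in this rat.

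Il1b had its highest group mean in CKD recipients of a healthy kidney. The 5 HD-CR hearts had 25.1, 28.7, 30.6, 18.8 and 23.7 CPM (mean 25.4 ± 4.57, SD). In HD-HR the lowest, median and highest were 9.10, 14.7 and 20.2 CPM (mean 14.9 ± 3.94), in CD-HR 9.58, 14.7 and 17.5 CPM (mean 14.6 ± 2.84), and in CD-CR 1.41, 13.7 and 16.8 CPM (mean 12.04 ± 5.48, and 14.2 ± 1.89 without CD-CR1). Of the HD-CR hearts, 4 lay above every HD-HR heart and all 5 lay above every CD-HR and every CD-CR heart. HD-CR against CD-HR was not among the comparisons made, so the share of all genes without overlap there was not counted. The other groups overlapped one another.

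With a healthy kidney, CKD recipients had 1.71-fold the Il1b level of healthy recipients (log2 0.78 ± 0.32, SE), with an unadjusted p of 0.0233 and an adjusted p of 0.209 by edgeR over 11568 genes, so it was not called. In this comparison 0.614% of all genes were called and 18.1% had an unadjusted p under 0.05. The call turned on how the spread was estimated: with CD-CR1 left out of the fit the log2 value was 0.80 ± 0.17 and the adjusted p 0.0216, and with only HD-CR and HD-HR in the fit it was 0.78 ± 0.17 and 0.0255. With these 2 groups alone 306 of all genes were called, against 71 in the full fit, and the number without CD-CR1 is not given here. With the prefix of the animal name (12 or 13, described with the methods) as a covariate the log2 value was 0.70 ± 0.47 (adjusted p = 0.434), and among prefix 13 alone, 0.73 ± 0.31. Prefix 13 holds 1 HD-CR heart, so that SE takes its spread from the other groups and assumes that this heart varies as they do. The direction was the same in every alternative run for this comparison. The log2 value ranged from 0.69 to 0.88 and the edgeR, DESeq2 or limma adjusted p from 0.0216 to 0.434.

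Among CKD recipients, Il1b was 2.12-fold lower with a CKD kidney than with a healthy one (log2 -1.08 ± 0.32). It ranked 99 of 11568 genes by p, with an unadjusted p of 0.00287 and an adjusted p of 0.330 by edgeR, and was not called. In this comparison 0.0259% of genes were called and 8.31% had an unadjusted p under 0.05, among them Il1b and Ccl2. The groups did not overlap for Il1b, with CD-CR lower, which held for 0.372% of all genes (0.666% in either direction). It was the 1 member of 5 without overlap here, and 0 of 5 were without overlap in HD-CR against HD-HR, CD-CR against CD-HR or CD-HR against HD-HR, where 3.59%, 1.18% and 0.285% of all genes were. Without CD-CR1 the log2 value was -0.85 ± 0.17 (adjusted p = 0.0762 by edgeR), and within the hearts of prefix 12 it was -1.10 ± 0.52, or -0.81 ± 0.15 without CD-CR1 (adjusted p = 0.754 and 0.0848). This comparison and the preceding one share the HD-CR hearts, so they are not independent of each other. The direct test of whether the donor's effect differed between recipients, the interaction, gave log2 -1.06 ± 0.45 for Il1b, with an unadjusted p of 0.0278 and an adjusted p of 1 by edgeR (0.00864% of genes called, 3.26% with an unadjusted p under 0.05). Without CD-CR1 it was -0.84 ± 0.24, with an unadjusted p of 0.00165 and an adjusted p of 0.998.

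Ccl2 was lower on average with a CKD kidney in both kinds of recipient, without passing the test. The HD-CR hearts had 40.3, 72.6, 82.9, 62.1 and 92.7 CPM. The lowest, median and highest were 45.6, 63.7 and 84.3 CPM in HD-HR, 28.0, 55.3 and 62.1 CPM in CD-HR, and 2.20, 44.3 and 59.98 CPM in CD-CR. None of the 6 CD-HR hearts lay above the HD-HR median and none of the 6 CD-CR hearts above the HD-CR median, but the groups overlapped in each comparison. Averaged over recipients, the log2 difference was -0.64 ± 0.31 (adjusted p = 0.398 by edgeR), and -0.51 ± 0.19 without CD-CR1 (adjusted p = 0.216). In CKD recipients alone it was -0.96 ± 0.45 (adjusted p = 0.591), -0.72 ± 0.28 without CD-CR1 and -0.51 ± 0.24 without CD-CR1 and CD-CR6 (adjusted p = 0.761).

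Il6 rested on few reads, with at most 88 counts in any library but CD-CR6. The HD-CR hearts were closely grouped at 4.71, 4.86, 5.17, 6.21 and 6.62 CPM, and the CD-HR hearts ran from 3.58 to 5.18 CPM (median 4.37). HD-HR was wider, with a lowest, median and highest of 2.03, 4.92 and 8.96 CPM. CD-CR held both ends of the series, 0 in CD-CR1 and 33.8 CPM in CD-CR6, around a median of 3.91 CPM. Its mean of 8.50 ± 12.6 CPM (SD, n = 6) therefore described no heart of that group. The log2 difference of CD-CR from CD-HR was 0.94 ± 0.64 (adjusted p = 0.464 by edgeR), and -0.38 without CD-CR6, so its direction rested on that library.

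Icam1 gave overlapping ranges in the 4 groups. The HD-CR hearts had 306.6, 367.9, 343.8, 422.0 and 443.2 CPM, all above 5 of the 6 CD-CR hearts, whose lowest, median and highest were 14.5, 288.0 and 402.0 CPM. HD-HR ran from 215.5 to 477.4 CPM (median 341.2) and CD-HR from 224.5 to 353.4 CPM (median 267.2). In CKD recipients the donor difference was -0.62 ± 0.43 on the log2 scale and -0.38 ± 0.20 without CD-CR1 (adjusted p = 0.715 and 0.626 by edgeR).

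Vcam1 overlapped between the groups in each comparison. The HD-CR hearts had 107.4, 126.8, 167.8, 169.5 and 178.5 CPM in ascending order. HD-HR ran from 129.3 to 275.2 CPM (median 163.5), CD-HR from 117.1 to 214.2 CPM (median 133.4) and CD-CR from 6.50 to 181.3 CPM (median 127.6). HD-HR5, with 275.2 CPM, was the highest library for Vcam1 and also for Icam1 (477.4 CPM). By group mean the order was HD-HR, HD-CR, CD-HR, CD-CR, and neighbours in it differed by less than their SD (176.6 ± 50.5, 150.0 ± 31.1, 145.3 ± 37.0 and 123.5 ± 63.0 CPM). Without CD-CR1 the CD-CR mean was 146.8 ± 29.4 CPM, above CD-HR, so its last place rested on that library.

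**Figure D3:**
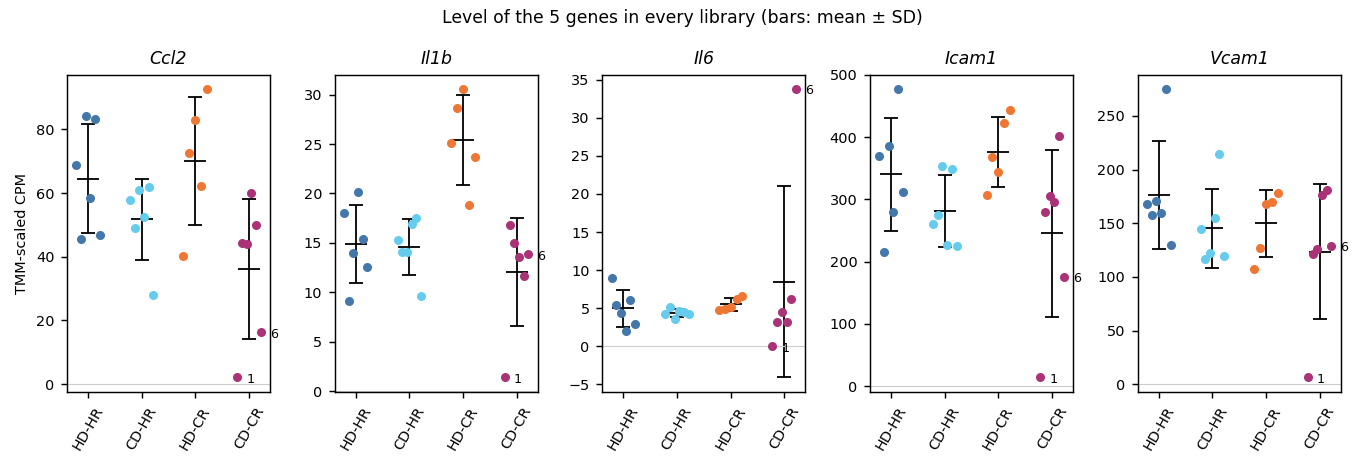
TMM-scaled CPM of each gene (linear axes) in every library of the 4 groups; points are libraries, horizontal bars the mean and whiskers the SD, and the labels 1 and 6 mark CD-CR1 and CD-CR6. The 5 HD-CR points for Il1b lie above all 6 CD-CR points, and CD-CR1 lies at the bottom of each panel.

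None of the 5 genes was called in any of the 7 comparisons made (recipient disease with each kind of kidney and averaged, donor disease in each kind of recipient and averaged, and their interaction), by edgeR, DESeq2 or limma-voom. With an unadjusted edgeR p under 0.05 there were 0 members in 3 of them, Il1b alone in 3, and Il1b and Ccl2 in CD-CR against HD-CR. For recipient disease averaged over donors, 12.8% of all genes were called and 29.5% had an unadjusted p under 0.05. There the log2 differences of CKD from healthy recipients were 0.25 ± 0.22 for Il1b, 0.54 ± 0.47 for Il6, -0.20 ± 0.31 for Ccl2, -0.02 ± 0.30 for Icam1 and -0.24 ± 0.30 for Vcam1, with edgeR adjusted p from 0.465 to 0.969. Their median was -0.02, beside -0.01 over all genes tested. The 95% intervals, by the normal approximation, were -0.61 to 0.56 for Icam1 and -0.82 to 0.35 for Vcam1. Without CD-CR1, Vcam1 was at -0.10 ± 0.13 and Ccl2 at -0.06 ± 0.19.

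Without CD-CR1, Il1b alone passed in the averaged recipient comparison, with log2 0.38 ± 0.12 and an adjusted p of 0.0419 by edgeR, and its level was 19.8 CPM in the remaining 10 CKD recipients against 14.7 CPM in the 12 healthy ones. The remaining 5 CD-CR hearts averaged 14.2 CPM, beside 14.6 CPM in CD-HR. Il1b did not pass with the name prefix as a covariate in the same fit (0.21 ± 0.21, adjusted p = 0.5995), nor without CD-CR1 and CD-CR6 together (0.39 ± 0.12, adjusted p = 0.0534). Over all genes, this comparison called 12.8% in the full fit, and 860 to 1742 genes with 1 library left out at a time. A call is thus common in it. The Icam1 difference lay so near 0 that its sign changed without any 1 of 6 libraries, at 0.11 without CD-CR1, 0.04 without HD-HR5, 0.02 without CD-CR6 and 0.01 without CD-HR3, CD-HR5 or HD-CR1. Prefix and recipient disease are nearly confounded here, and their parts in this difference cannot be told apart.

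For donor disease averaged over recipients, 0% of all genes were called, and 12.8% had an unadjusted p under 0.05. Il1b (log2 -0.55 ± 0.22, unadjusted p = 0.0222, adjusted p = 0.295 by edgeR) was the only member with an unadjusted p under 0.05. Without CD-CR1 it was -0.43 ± 0.12 (unadjusted p = 0.00124, adjusted p = 0.101 by edgeR). Of the 5 members, 4 (all but Il6) had lower fitted values with a CKD kidney, with a median over the 5 of -0.45 beside 0.01 over all genes tested. CD-CR1, a heart with a CKD kidney that was low in all 5 genes, enters each of these values. The 5 members are therefore not separate observations, and this count and median are not given here without CD-CR1. In healthy recipients 0% of genes were called and 7.6% had an unadjusted p under 0.05, and the 5 members had edgeR adjusted p from 0.904 to 0.993. In CD-CR against CD-HR 1.56% of genes were called and 17.8% had an unadjusted p under 0.05.

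**Figure D4:**
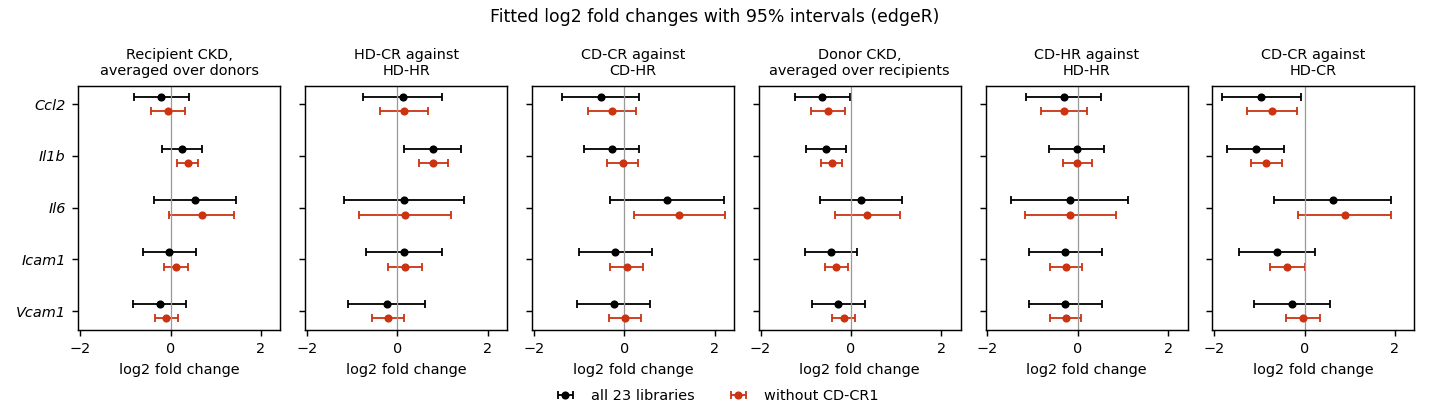
Fitted log2 fold changes of the 5 genes in 6 comparisons, with 95% intervals, from the fit of all 23 libraries (black) and from the fit without CD-CR1 (red). In both fits the intervals leave out 0 for Il1b in HD-CR against HD-HR, and for Il1b and Ccl2 in CD-CR against HD-CR and in the averaged donor comparison. They use the normal approximation and are narrower than the test: the edgeR p of Ccl2 in the averaged donor comparison was 0.0536 before adjustment in the fit of all libraries.

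Whether the members varied together between rats of a group was examined on log2 CPM after subtracting each group's mean. Over 23 libraries Pearson's r between the 10 pairs ran from 0.574 (Ccl2 with Il6) to 0.949 (Icam1 with Vcam1), and 4 pairs passed after Benjamini-Hochberg adjustment of permutation p-values over the 10 pairs. These values rested on CD-CR1: the median r of the 10 pairs was 0.87 with it and 0.154 without it. The 4 pairs were the 3 among Ccl2, Icam1 and Vcam1, and Ccl2 with Il1b (r = 0.864, permutation p = 0.00644, adjusted 0.0161), which was 0.377 without CD-CR1. By Spearman's rho 4 pairs also passed, but not the same 4. Ccl2 with Il1b did not pass (rho = 0.517, adjusted permutation p = 0.0721). Il6 with Vcam1 did (rho = 0.565, adjusted permutation p = 0.00867), but not without CD-CR1 (rho = 0.339, adjusted permutation p = 0.341).

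By Pearson's r the pairs that passed without CD-CR1 were those joining the chemokine and the adhesion genes, while by Spearman's rho Icam1 with Vcam1 did not pass. The share of all gene pairs with values this high was not examined. Without CD-CR1, Icam1 stood at rank 3 of 11568 genes by r with Ccl2, but for Icam1 a gene with r = 0.734 stood only at rank 82. Ccl2 and Icam1 had r = 0.771 and Spearman's rho = 0.749 over 22 libraries (permutation p = 0.00016 and 0.00047, adjusted 0.0016 and 0.0047), and r = 0.649 without the 2 libraries farthest from the Ccl2 median, CD-CR6 and CD-HR6. Ccl2 and Vcam1 had r = 0.58 and rho = 0.659 (permutation p = 0.0052 and 0.00204, adjusted 0.026 and 0.0102), and r = 0.673 without the same 2 libraries. Icam1 and Vcam1 had r = 0.56 and rho = 0.494 (permutation p = 0.0126 and 0.0316, adjusted 0.0422 and 0.105), and r = 0.629 without CD-CR6 and HD-HR2. Il1b had no passing pair in these 22 libraries, with r from -0.14 (with Il6) to 0.377 (with Ccl2). Il6 and Ccl2 had r = -0.446, which was 0.229 without CD-CR6 and CD-HR6.

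By the same measure the gene most like each member was sought among 11568 tested genes, as a description over 23 libraries. For Ccl2 it was Icam1 (r = 0.945, and 0.771 without CD-CR1). For Il1b it was ENSRNOG00000049517 (r = 0.923, and 0.45 without CD-CR1), for Il6 ENSRNOG00000002792 (0.898 and 0.688), for Icam1 ENSRNOG00000036880 (0.971 and 0.734) and for Vcam1 ENSRNOG00000002723 (0.968 and 0.790). Without CD-CR1 another gene was most like each of the 5 members (for Il1b ENSRNOG00000003170, r = 0.806), and the genes named for Il1b and Icam1 stood at ranks 263 and 82, so which gene is most alike rested on that library. Each of the 4 unnamed genes of the full set was also low in CD-CR1, which follows largely from choosing them by correlation with members that were low there. ENSRNOG00000002723, for example, stood there at 2.02 CPM, against 46.9 to 182.2 CPM in the other libraries.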

How the data were processed

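RNA-seq of the heart apex of 23 rats was analysed, with groups and replicate numbers from the sample titles. Each deposited file holds raw counts of reads per gene, as whole numbers. The tools named in the submitters' processing notes are HTSeq 0.6.1p1, STAR 2.4.2a and Picard, on build Rnor_5.0. Their roles, the annotation and the strand setting are not stated in those notes, so antisense or overlapping genes may share reads. The 5 summary lines of each file were left out (reads in no feature 10.6 to 21.5%). Replicates are separate rats, and no pair of a group agreed within sampling noise (lowest chi-square per degree of freedom 8.38).

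Genes were filtered with filterByExpr (11568 of 26405 kept), given TMM factors, and compared in 1 quasi-likelihood fit of all 23 libraries (edgeR 4.0.16, R 4.3.3, robust). P-values were adjusted by Benjamini-Hochberg over all genes, with a call at an adjusted p under 0.05. Standard errors are the log2 change over the square root of F. Log2 CPM used a prior count of 2. Permutation tests used 100000 resamples, within groups for correlations, two-sided. Counting limits cover counting error only. Alternatives included DESeq2 1.42.0, limma-voom 3.58.1, other scaling, no filter, a replicate block, the animal-name prefix, and leaving out each library. All 12 healthy recipients have the name prefix 13, while 9 CKD recipients have 12 and 2 have 13; its meaning is not given. On simulated counts of the averaged recipient comparison (11437 genes) 84.4% of 2-fold and 70.2% of 1.5-fold changes were recovered, and for CD-HR against HD-HR (11485 genes) 71.1% and 32.0%. For the interaction (11473 genes) only 30.2% and 1.92% were recovered. These rates are not specific to the 5 members, whose own recovery was not tested. In the averaged recipient comparison the members' log2 SE ran from 0.22 (Il1b) to 0.47 (Il6). The members and lists were chosen with earlier results of these data known. The text names all 5 members and, for each, the 1 gene most like it. Settings that leave out CD-CR1 and CD-CR6 together, leave CD-CR1 out of a comparison it is not in, set the 5 CPM minimum without CD-CR6, or combine its omission with the prefix were chosen after seeing the data.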

Additional observations from a re-analysis of the deposited data

Results flagged for a closer look

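Within each group of 5 or 6 hearts, the highest and lowest values of each gene were compared with the rest by Dixon's criterion, in 20 sets of values. Chance alone marks about 1 set in 20, and 4 values stood apart. The 20 sets share the same libraries and are not independent, so these numbers are not a test. Il1b in CD-CR1 was 1.41 CPM and Vcam1 in CD-CR1 was 6.50 CPM, each far below the other 5 CD-CR hearts. Il6 in CD-CR6 was 33.8 CPM, far above the other CD-CR hearts. Vcam1 in HD-HR5 was 275.2 CPM, above the other HD-HR hearts. Ccl2 and Icam1 in CD-CR1 (2.20 and 14.5 CPM) were not marked. The criterion measures the gap to the next value, and CD-CR6 was next lowest there (16.3 and 175.4 CPM).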

How the results depend on the processing

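None of the 5 genes passed in 179 of the 182 counts of called members under an alternative. The exceptions were all Il1b: 1 member was called in HD-CR against HD-HR with the 2 groups alone and with CD-CR1 out of the shared spread, and 1 in the averaged recipient comparison without CD-CR1, where the count was 0 to 1 over the libraries left out in turn. The number of all genes called without CD-CR1 is not given here for HD-CR against HD-HR. For the averaged recipient comparison it lay within 860 to 1742. The permutation test of the recipient difference in CPM likewise passed for 0 to 1 members (unadjusted p under 0.05) over the libraries left out, and for 1 without both CD-CR1 and CD-CR6. Of 35 fitted member changes, 19 turned sign under some alternative, and none of these was called on either side. In the averaged recipient comparison, Ccl2, Icam1 and Vcam1 were at 0.24, 0.47 and 0.18 when the name prefix was a covariate, 0.27, 0.48 and 0.20 in prefix 13 alone, and 0.27, 0.48 and 0.20 with the prefix and without CD-CR1. Without both CD-CR1 and CD-CR6, Ccl2 was at 0.041 and Icam1 at 0.18. Il6 was at -0.28 there by limma-voom and -0.83 in CD-CR against CD-HR, where it was -0.034 without both libraries. Leaving out 1 library at a time gave -0.12 to 0.11 for Icam1 and -0.11 to 0.69 for Il6 in the averaged recipient comparison, and -0.38 to 1.22 for Il6 in CD-CR against CD-HR. The cause of these turns was not tested. With the replicate block, Il1b in CD-CR against HD-CR was at -1.09 (adjusted p = 0.527 by edgeR) and no member was called in any comparison. Same-numbered hearts are not said to be paired: 12 of 33 such pairs correlated above 0.1, and 6 of 23 libraries correlated best with their own number. No chance level was set for these counts, so they do not decide whether a number marks a pairing. With 1 library left out at a time the genes called numbered 860 to 1742 (averaged recipient), 5 to 89 (HD-CR against HD-HR), 48 to 359 (CD-CR against CD-HR), 0 to 46 (averaged donor) and 2 to 18 (CD-CR against HD-CR). Over all genes, the averaged recipient comparison called 1483 genes, 6 with the prefix covariate and 0 within prefix 13; HD-CR against HD-HR called 71, 306 with the 2 groups alone, 3 with the prefix covariate, 259 by DESeq2, and 44 by limma-voom; CD-CR against CD-HR called 181, 61 without CD-CR1, 0 with the prefix covariate and 449 by DESeq2; CD-CR against HD-CR called 3, and 36 by DESeq2; the averaged donor comparison called 0, and 226 by DESeq2; CD-HR against HD-HR called 0, and 7 by DESeq2; the interaction called 1, and 2 by DESeq2. Depth limits Il6 most, at 18 to 88 counts in libraries other than CD-CR1 and CD-CR6.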
